A study of Mus musculus with 9 samples.

Results

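The colony-stimulating factors and their receptors were followed through whole lung of silica-instilled mice. The members are the 9 genes of the deposited table that carry the symbols Csf1, Csf2, Csf3, Il34, Csf1r, Csf2ra, Csf2rb, Csf2rb2 and Csf3r, out of 55359 genes in all. The rule uses names and no measured value, though the members were chosen with earlier results of these data known. Poly(A) RNA was sequenced from lungs of male mice of the strain C57BL/6J, aged 6 to 8 weeks, on day 28 after an instillation into the trachea. Silica + ATL-III mice received 5 mg of silica and, into the abdomen, 30 mg/kg per day of atractylenolide III (ATL-III), a plant sesquiterpene lactone. Silica, the dust behind silicosis, was given at the same 5 mg without ATL-III in the Silica group, and Control mice received saline into the trachea. Each group held 20 mice and gave 3 libraries. Below, "with ATL-III" stands for the Silica + ATL-III group, so its difference from Control holds silica and ATL-III together. A group with ATL-III alone, a sham injection and the length of dosing are not named in the labels. Nor do they tell if a library stands for 1 mouse, so the p-values reflect library-to-library spread, part of which may be technical.

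Colony-stimulating factors are secreted proteins that keep myeloid cells alive and make them divide and mature. M-CSF (Csf1) and interleukin 34 (Il34) both act through the receptor tyrosine kinase Csf1r on monocytes and macrophages. GM-CSF (Csf2) acts through an alpha chain of its own (Csf2ra) and a signalling beta chain (Csf2rb) shared with the receptors for interleukins 3 and 5; in the lung it is known for the development of alveolar macrophages, which clear surfactant. Mice also carry Csf2rb2, a second beta chain that serves interleukin 3. G-CSF (Csf3) acts through Csf3r, the receptor that drives neutrophil production and release.

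The proximal promoters are shown because the receptor genes are textbook targets of PU.1 and C/EBP, the transcription factors of the myeloid lineage, and because Csf2 is a textbook target of NF-kB. Promoters were taken from RefSeq (GRCm38.p6), 250 bases before to 50 bases after the start, and were held for 5 of the 9 members: Csf1, Csf2, Csf2ra, Csf2rb2 and Csf3r. Those of Csf3r (chr4:126024409-126024708, plus strand), Csf2ra (chr19:61228369-61228668, minus strand), Csf2rb2 (chr15:78305672-78305971, minus strand) and Csf2 (chr11:54249850-54250149, minus strand) read 5′ to 3′ as follows, with capitals for every match of 4 motifs on either strand: GAGGAA for PU.1, TTGCNNAA for C/EBP, TTCNNNGAA for STAT5 or STAT3 and, for NF-kB, GGGA followed by any 4 bases and CC.
Csf3r: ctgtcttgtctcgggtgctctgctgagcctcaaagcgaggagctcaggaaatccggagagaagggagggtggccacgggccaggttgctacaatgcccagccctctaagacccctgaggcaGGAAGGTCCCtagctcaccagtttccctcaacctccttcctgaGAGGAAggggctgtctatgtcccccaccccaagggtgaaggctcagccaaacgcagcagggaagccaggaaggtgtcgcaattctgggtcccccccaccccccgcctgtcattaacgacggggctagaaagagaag
Csf2ra: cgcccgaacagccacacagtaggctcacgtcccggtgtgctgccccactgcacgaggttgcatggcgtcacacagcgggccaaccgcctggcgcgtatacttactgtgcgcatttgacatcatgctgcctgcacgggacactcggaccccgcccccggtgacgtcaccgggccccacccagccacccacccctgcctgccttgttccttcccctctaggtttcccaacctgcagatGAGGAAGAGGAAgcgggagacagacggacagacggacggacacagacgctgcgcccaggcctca
Csf2rb2: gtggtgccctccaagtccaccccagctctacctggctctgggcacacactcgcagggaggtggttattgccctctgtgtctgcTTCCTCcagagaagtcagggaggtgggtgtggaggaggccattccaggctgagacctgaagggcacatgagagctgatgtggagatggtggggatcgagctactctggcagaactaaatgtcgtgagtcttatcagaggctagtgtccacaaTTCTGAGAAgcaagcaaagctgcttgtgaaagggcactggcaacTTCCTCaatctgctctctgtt
Csf2: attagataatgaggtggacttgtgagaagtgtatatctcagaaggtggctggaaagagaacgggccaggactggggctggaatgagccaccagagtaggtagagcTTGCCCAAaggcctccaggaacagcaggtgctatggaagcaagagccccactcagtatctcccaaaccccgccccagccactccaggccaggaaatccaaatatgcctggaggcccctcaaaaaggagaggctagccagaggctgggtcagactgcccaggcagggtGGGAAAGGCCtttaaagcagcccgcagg
GAGGAA was found in 3 of the 5 promoters, all of receptors. Counted from the start, it stood once in Csf3r, at -86. In Csf2ra a pair of copies lay side by side without overlap, at -14 and -8. In Csf2rb2 it read on the reverse strand at -167 and 30. Across 32851 promoters of the same length, 28.3% held this motif. The STAT motif stood in Csf2rb2 (8.30% of all promoters) and the C/EBP motif in Csf2 (10.8%). No C/EBP motif stood in the receptor promoters at hand, those of Csf2ra, Csf2rb2 and Csf3r. The NF-kB motif stood in Csf2, Csf3r and, 3 times with 2 of the matches overlapping, in Csf1 (20.7% of all promoters). A match is a string of letters and not a shown binding site.

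Counts per library ran from 16047175 to 17792481. All libraries held the lung epithelial gene Sftpc (surfactant protein C) at 19802 to 30186 FPKM (the authors' fragments per kilobase of exon, scaled to the total count of a library). Of the 9 members, 8 passed the filter of at least 1 FPKM in at least 3 libraries, as did 15459 genes in all. Csf3 did not and was not tested. Control 2 stood apart from the other Control libraries by higher neutrophil transcripts (Cxcr2, a neutrophil chemokine receptor, at 20.0 FPKM against 4.25 and 3.54), and results that rest on it are given with and without it. In whole tissue, fewer cells of a type and less RNA per cell cannot be told apart.

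On the FPKM scale, Csf3 was the lowest member in every library. Csf3r was the highest in every Silica + ATL-III library, while its first place by the mean in the other groups rested on Silica 2 and Control 2: Silica 1 and Silica 3 (11.1 and 10.1 FPKM) lay below every Silica library of Csf2ra, and Control 1 and Control 3 (13.4 and 13.6 FPKM) lay within the range of Csf1r. In Silica + ATL-III lungs the order of mean levels was Csf3r (159.9 FPKM), Csf2ra (24.8), Csf2rb (17.0), Csf1r (12.02), Csf1 (9.04), Csf2rb2 (5.82), Il34 (3.24) and Csf2 (2.36), and only the neighbours Csf1r and Csf1, and Il34 and Csf2, overlapped between libraries. In Silica lungs the order was Csf3r (17.4), Csf2ra (14.1), Csf2rb (12.2), Csf1r (11.9), Csf2 (8.50), Csf1 (6.45), Csf2rb2 (6.42) and Il34 (5.33), and all neighbours overlapped except Csf1r and Csf2. In Control lungs the order was Csf3r (32.0), Csf2ra (15.2), Csf1r (13.4), Csf2rb (5.28), Csf1 (5.28), Il34 (4.15), Csf2 (3.83) and Csf2rb2 (1.87). There Csf1r stood above Csf2rb, and Csf2 above Csf2rb2, in every library, while the other neighbours overlapped. Csf2 thus stood last among the tested members with ATL-III and above Csf1, Csf2rb2 and Il34 in Silica lungs.

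The GM-CSF transcript was the ligand with the widest swing. Csf2 (ENSMUSG00000018916, chromosome 11) had 0.84, 2.46 and 3.78 FPKM in Silica + ATL-III lungs, 6.61, 10.19 and 8.71 FPKM in Silica lungs, and 3.42, 3.35 and 4.71 FPKM in Control lungs. Every Silica library lay above every library of the other groups, while the Silica + ATL-III and Control libraries overlapped. Csf2 fell with ATL-III relative to Silica by 1.81 ± 0.39 on the log2 scale (SE; 3.51-fold lower; edgeR's quasi-likelihood test, Benjamini-Hochberg adjusted over all tested genes, adjusted p = 0.0072), and this call was kept under every other setting and whichever library was left out. Silica against Control gave 1.24 ± 0.37 (adjusted p = 0.041). That call ended when any 1 Control or Silica library was left out (adjusted p = 0.069 to 0.12). Silica + ATL-III against Control gave -0.57 ± 0.40 (95% interval -1.45 to 0.31, adjusted p = 0.38). These are low counts, 11, 33 and 50 reads with ATL-III, 92, 137 and 124 in Silica and 45, 43 and 61 in Control lungs.

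**Figure D1:**
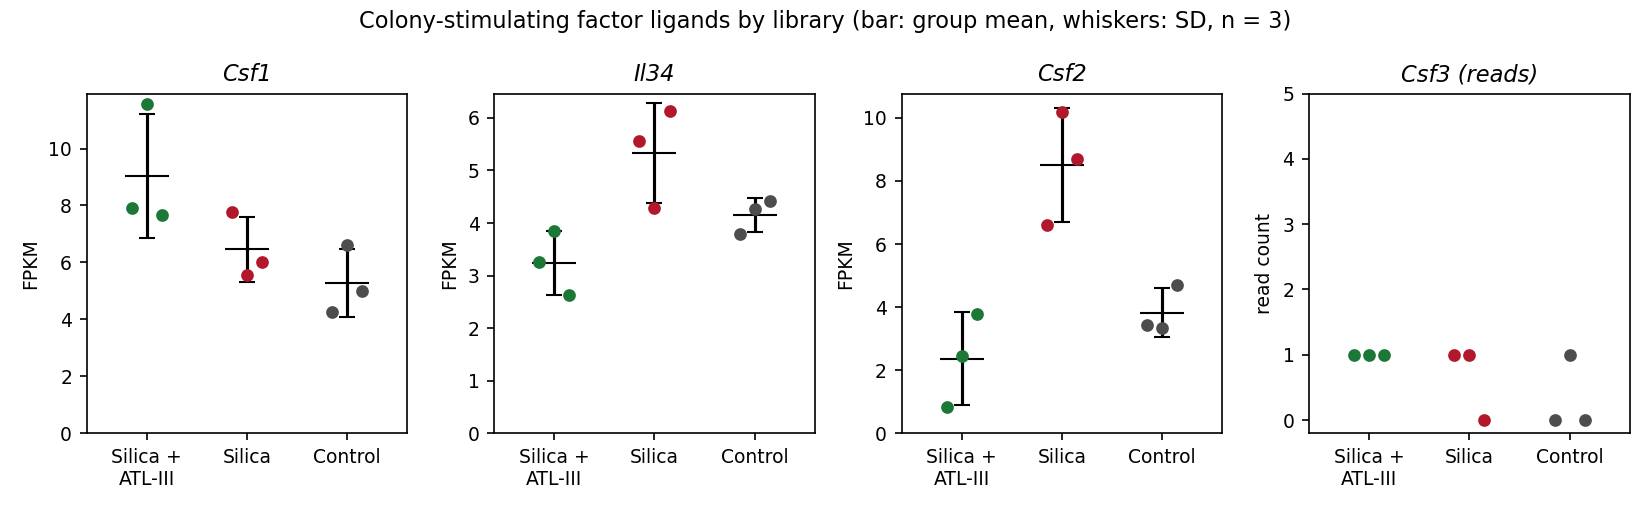
FPKM per library of the ligand genes Csf1, Il34 and Csf2, and read counts of Csf3, in Silica + ATL-III, Silica and Control lungs (points: libraries; bar: mean; whiskers: SD, n = 3). Csf2 is highest in all 3 Silica libraries, Csf1 is highest on average with ATL-III, and no Csf3 point exceeds 1 read.

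Of the ligands of Csf1r, Csf1 was called higher with ATL-III relative to Control, and Il34 was called lower with ATL-III relative to Silica. Csf1 (ENSMUSG00000014599, chromosome 3), which encodes M-CSF, had 7.91, 11.56 and 7.65 FPKM in Silica + ATL-III lungs, 7.76, 5.57 and 6.03 FPKM in Silica lungs, and 4.24, 6.60 and 5.00 FPKM in Control lungs. All Silica + ATL-III libraries exceeded all Control libraries, and the Silica libraries overlapped both groups. Csf1 was 0.90 ± 0.20 higher in Silica + ATL-III than in Control (log2, SE, edgeR adjusted p = 0.011), a call lost without Control 1 (adjusted p = 0.054). Silica + ATL-III against Silica gave 0.50 ± 0.20 (95% interval 0.06 to 0.94, adjusted p = 0.099), and Silica against Control gave 0.40 ± 0.20 (-0.05 to 0.84, adjusted p = 0.19), so neither passed the threshold. With no filter on low values, which tests 33325 genes, both passed (edgeR adjusted p = 0.0049 and 0.036). That fit gave far smaller p-values, as given below for Csf3r, and no conclusion is drawn from it.

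Il34 (ENSMUSG00000031750, chromosome 8), the other ligand of the same receptor, had 3.26, 3.84 and 2.63 FPKM in Silica + ATL-III lungs, 5.57, 4.28 and 6.14 FPKM in Silica lungs, and 3.79, 4.26 and 4.41 FPKM in Control lungs. The Silica + ATL-III libraries all lay below the Silica libraries, and overlapped Control in 1 library. Il34 fell with ATL-III relative to Silica by 0.70 ± 0.19 on the log2 scale (edgeR adjusted p = 0.024). That call ended with the 6 compared libraries alone (adjusted p = 0.054), and without Silica 1, Silica 3, Silica + ATL-III 1 or Silica + ATL-III 3 (adjusted p = 0.062 to 0.097). Silica against Control gave 0.46 ± 0.19 (adjusted p = 0.11), which passed without Silica 2 (0.63, adjusted p = 0.029), and Silica + ATL-III against Control gave -0.24 ± 0.20 (adjusted p = 0.45).

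Within a library, Csf1 was set against Il34, since such a ratio does not depend on scaling between libraries. The log2 ratio of Csf1 to Il34 FPKM was 1.25, 1.57 and 1.51 in Silica + ATL-III lungs, 0.47, 0.37 and -0.03 in Silica lungs, and 0.16, 0.62 and 0.18 in Control lungs. All 3 Silica + ATL-III libraries lay above all others. The difference between means was 1.17 against Silica and 1.12 against Control (exact two-sided permutation test, p = 0.1 each, n = 3 per group). With 3 against 3 libraries 0.1 is the smallest p that test allows, so it could not pass 0.05. Silica against Control differed by -0.05 (exact p = 1).

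Csf3 (ENSMUSG00000038067), the G-CSF gene on chromosome 11, was at the limit of detection. It had 1, 1 and 1 read in Silica + ATL-III lungs, 1, 1 and 0 reads in Silica lungs, and 0, 1 and 0 reads in Control lungs. In the 3 libraries with 0 reads, a count of 0 allows up to 3 counts, which is 0.119 FPKM in Silica 3, 0.129 FPKM in Control 1 and 0.131 FPKM in Control 3 and covers counting error only. A difference in Csf3 between groups was not detectable at this depth.

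The receptor for G-CSF showed the largest fold change among the members. Csf3r (ENSMUSG00000028859, chromosome 4) had 139.9, 160.9 and 178.8 FPKM in Silica + ATL-III lungs, 11.1, 31.1 and 10.1 FPKM in Silica lungs, and 13.4, 69.0 and 13.6 FPKM in Control lungs. Every Silica + ATL-III library exceeded every other library, and Silica 2 and Control 2 stood above the rest of their groups. Csf3r rose with ATL-III relative to Silica by 3.23 ± 0.62 (log2, SE; 9.40-fold; edgeR adjusted p = 0.004), and this call was kept whichever library was left out, at 2.96 to 3.91 with the highest value without Silica 2. In Silica + ATL-III it was 2.45 ± 0.60 higher than in Control (edgeR adjusted p = 0.016). That difference was 3.68 without Control 2 (adjusted p = 0.00028) and lost its call without Control 1 or Control 3 (adjusted p = 0.057 each). Silica against Control gave -0.79 ± 0.58 (95% interval -2.04 to 0.47, edgeR adjusted p = 0.36), which turned to 0.45 without Control 2 (adjusted p = 0.46). With no filter on low values it was called lower (edgeR adjusted p = 1.1e-05), in a fit with far smaller p-values (given below). No conclusion is drawn from that call.

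**Figure D2:**
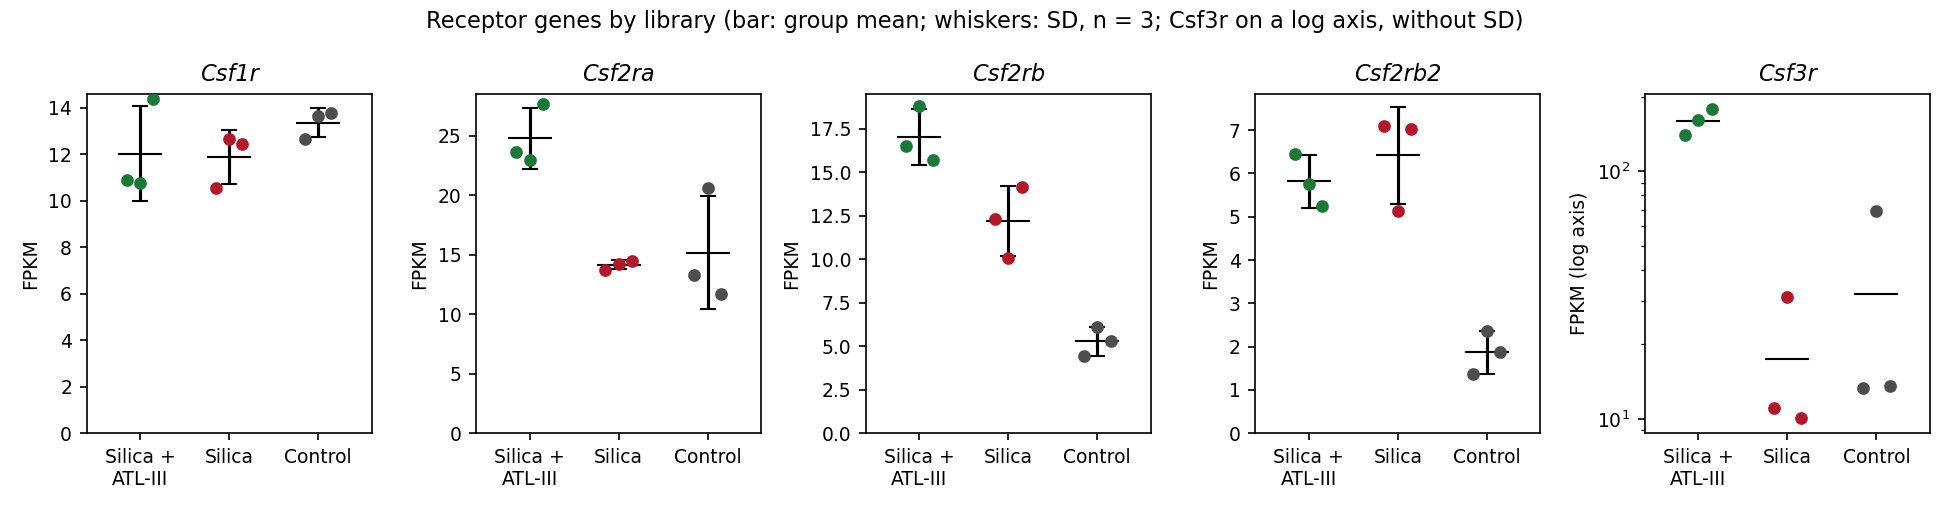
FPKM per library of the receptor genes Csf1r, Csf2ra, Csf2rb, Csf2rb2 (bar: mean; whiskers: SD, n = 3) and Csf3r (log axis, bar: mean, no SD) in Silica + ATL-III, Silica and Control lungs. Csf3r and Csf2ra are highest in all 3 Silica + ATL-III libraries, Csf2rb2 is lowest in all 3 Control libraries, and the Csf1r points of the groups overlap.

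The alpha and beta chains of the GM-CSF receptor were both called higher with ATL-III, and of these only the beta chain was called in Silica over Control. Csf2ra (ENSMUSG00000059326, chromosome 19), the GM-CSF binding chain, had 23.7, 23.0 and 27.7 FPKM in Silica + ATL-III lungs, 13.8, 14.2 and 14.5 FPKM in Silica lungs, and 13.3, 20.6 and 11.7 FPKM in Control lungs. The Silica + ATL-III libraries lay above all others, the Silica libraries were within 1 FPKM of each other, and Control 2 was the highest of its group. Csf2ra rose with ATL-III by 0.83 ± 0.17 relative to Silica (log2, SE; edgeR adjusted p = 0.0066) and by 0.83 ± 0.17 relative to Control (adjusted p = 0.0073), and both calls were kept under every setting and without any 1 library. Silica against Control gave -0.00 ± 0.18 (95% interval -0.38 to 0.38, adjusted p = 1), and 0.27 without Control 2 (adjusted p = 0.19).

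Csf2rb (ENSMUSG00000071713, chromosome 15), the shared signalling chain, had 16.5, 18.8 and 15.7 FPKM in Silica + ATL-III lungs, 12.3, 10.1 and 14.1 FPKM in Silica lungs, and 4.43, 6.11 and 5.31 FPKM in Control lungs. The 3 groups did not overlap. Csf2rb rose with silica relative to Control by 1.31 ± 0.15 (log2, SE, edgeR adjusted p = 0.00045). In Silica + ATL-III it was 1.81 ± 0.15 higher than in Control (edgeR adjusted p = 2.1e-05). Both calls were kept under every setting and without any 1 library. The further step of Silica + ATL-III over Silica was 0.50 ± 0.15 (adjusted p = 0.032). It lost its call in limma on log2(FPKM + 0.5) and log2(FPKM + 0.1) (adjusted p = 0.051 and 0.054) and with a replicate block (given below). The call also ended without Silica 1, Silica 2, Silica + ATL-III 1 or Silica + ATL-III 2 (adjusted p = 0.061 to 0.11).

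Csf2rb2 (ENSMUSG00000071714), its neighbour on chromosome 15 and the beta chain of the mouse interleukin 3 receptor, had 6.46, 5.75 and 5.24 FPKM in Silica + ATL-III lungs, 7.10, 5.13 and 7.03 FPKM in Silica lungs, and 1.37, 2.37 and 1.87 FPKM in Control lungs. Both silica-exposed groups lay above Control in every library and overlapped each other. Csf2rb2 rose with silica relative to Control by 1.88 ± 0.20 (log2, SE, edgeR adjusted p = 0.00026). In Silica + ATL-III it was 1.76 ± 0.20 higher than in Control (edgeR adjusted p = 0.00016). Both calls were kept under every setting and without any 1 library. Silica + ATL-III against Silica gave -0.13 ± 0.19 (95% interval -0.54 to 0.28, adjusted p = 0.66). The 2 beta chains are close copies: among protein-coding transcripts of GENCODE M21, 17.1% of the 50-base words of Csf2rb and 18.8% of those of Csf2rb2 occur in the other gene, and 6.46% and 7.05% of the 100-base words. No source at hand says how reads that fit both were counted, so the division of reads between them is uncertain. In a description added after the values were seen, Csf2rb2 took 20.3%, 16.6% and 17.8% of the reads of the pair in Silica + ATL-III lungs, 27.3%, 24.9% and 24.5% in Silica lungs, and 16.8%, 20.1% and 18.7% in Control lungs. That share was highest in the 3 Silica libraries.

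Within a library the beta chain was also set against the alpha chain. The log2 ratio of Csf2rb to Csf2ra FPKM was -0.52, -0.29 and -0.82 in Silica + ATL-III lungs, -0.16, -0.49 and -0.04 in Silica lungs, and -1.57, -1.74 and -1.12 in Control lungs. Silica and Control did not overlap, nor did Silica + ATL-III and Control. The differences were 1.25 for Silica over Control and 0.94 for Silica + ATL-III over Control (exact two-sided permutation test, p = 0.1 each, the smallest possible with n = 3 per group). Silica + ATL-III against Silica differed by -0.31 (exact p = 0.2).

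Csf1r (ENSMUSG00000024621, chromosome 18), the receptor of M-CSF and interleukin 34, showed no called change. It had 10.9, 10.8 and 14.4 FPKM in Silica + ATL-III lungs, 10.5, 12.7 and 12.4 FPKM in Silica lungs, and 12.7, 13.6 and 13.8 FPKM in Control lungs. All 3 groups overlapped. The log2 differences were 0.04 (95% interval -0.23 to 0.31, edgeR adjusted p = 0.85) for Silica + ATL-III over Silica, -0.07 (-0.34 to 0.20, adjusted p = 0.71) for Silica over Control and -0.03 (-0.30 to 0.24, adjusted p = 0.89) for Silica + ATL-III over Control. These intervals leave out changes beyond 0.34 on the log2 scale in either direction.

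**Figure D3:**
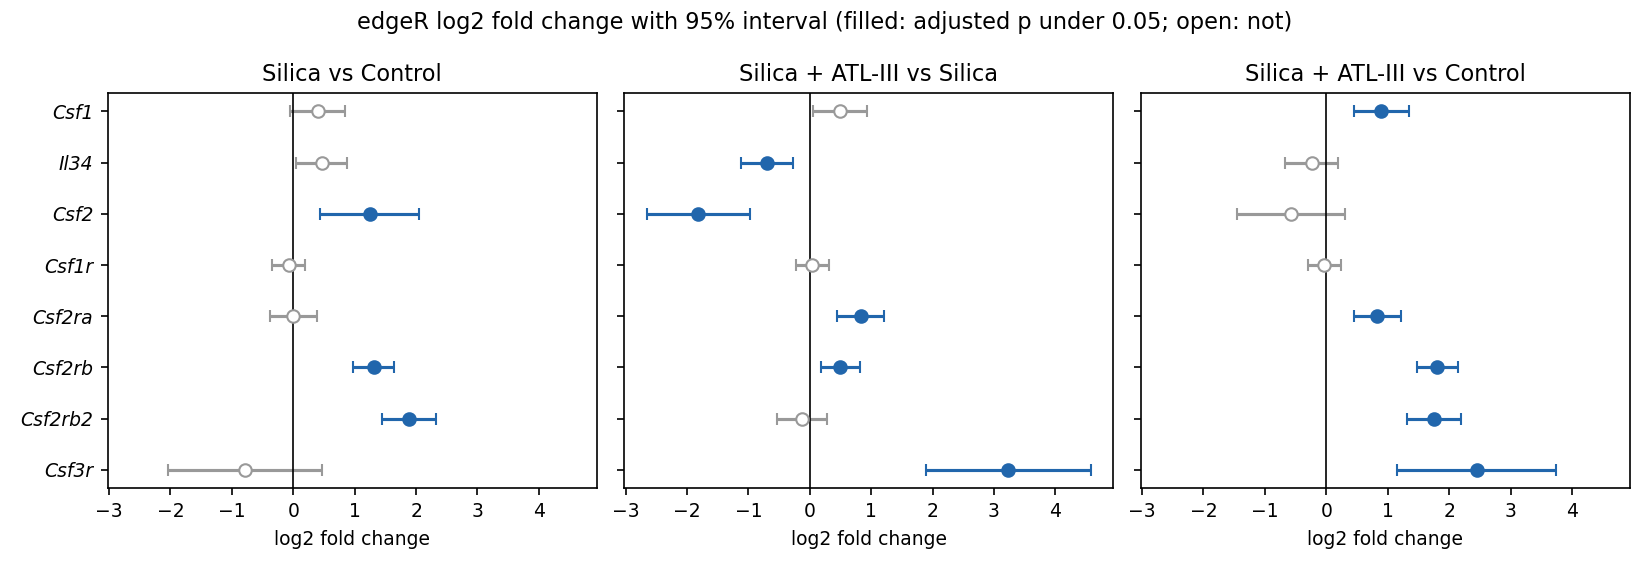
Log2 fold changes of the 8 tested members with 95% intervals (edgeR) for silica over Control (left), ATL-III over Silica (middle) and Silica + ATL-III over Control (right); filled points have an adjusted p under 0.05. Csf2 lies at 1.24 with silica and at -1.81 with ATL-III, and Csf3r at 3.23 with ATL-III relative to Silica.

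Counted over the family, 3 of 8 tested members were called in Silica vs Control, all higher (Csf2, Csf2rb and Csf2rb2), where 16.9% of all tested genes were called (9.11% higher and 7.81% lower). For ATL-III over Silica, 5 of 8 were called, against 21.2% of all tested genes. Of these, 3 were higher (Csf2ra, Csf2rb and Csf3r; 11.2% of all genes were called higher) and 2 lower (Csf2 and Il34; 10.0% of all genes). In Silica + ATL-III relative to Control, 5 of 8 were called, all higher (Csf1, Csf2ra, Csf2rb, Csf2rb2 and Csf3r), against 15.9% of all genes (9.14% higher and 6.71% lower). With 8 members these shares describe the family only. Leaving out 1 library gave 2 to 3, 3 to 5 and 3 to 5 called members in the 3 comparisons, the low count of 3 arising without Silica 1 or Silica + ATL-III 1 in the second and without Control 1 in the third. The comparisons share groups, so they are not independent of each other. The median log2 change of all tested genes was -0.01, -0.00 and -0.01.

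The list counts below are to be read beside the shares of all tested genes. Those were 9.11% higher and 7.81% lower in Silica vs Control, and 11.2% and 10.0% in Silica + ATL-III vs Silica. For Silica + ATL-III vs Control they were 9.14% and 6.71%. A count near these shares is no result about its list. Transcripts of receptor signalling and of the lineage regulators were read from a list of 39 genes, 37 of them tested. In Silica over Control, 7 were higher and 0 lower (median log2 change 0.13). These included Fcer1g and Tyrobp, adaptor proteins of immune receptors (1.43 ± 0.14 and 1.49 ± 0.31, log2, SE), and Spi1, which encodes PU.1 (1.05 ± 0.21). The count was 3 without Control 1 or Control 3 and 4 without Silica 1, and 2 genes were called lower without Silica 2. In Silica + ATL-III relative to Silica, 13 were higher and 4 lower (median 0.17), with Fgr, a Src-family kinase, at 1.75, Jak3, the kinase of the common gamma chain, at 1.37, Spi1 at 1.34 and Maf, a macrophage transcription factor, at -0.63 (the other lower genes were Irf8, Zeb2 and Sos1). The higher count was 8 without Silica 3, and the lower count was 1 without Silica 1 or Silica + ATL-III 2 and 2 without Silica 3 or Silica + ATL-III 1. For ATL-III over Control, 18 were higher and 1, Sos1, lower (median 0.35), and the higher count was 10 without Control 1 or Control 3 and 11 without Silica + ATL-III 2.

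Spi1 stepped up across the groups as Csf2rb did. It had 22.0, 24.6 and 27.6 FPKM in Silica + ATL-III lungs, 11.7, 9.34 and 8.68 FPKM in Silica lungs, and 5.40, 6.57 and 3.43 FPKM in Control lungs. The groups did not overlap, and Spi1 was 2.39 higher on the log2 scale with ATL-III than in Control (edgeR adjusted p = 2.9e-05).

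Feedback and target genes of STAT5 and STAT3, the factors that these receptors activate, numbered 18 tested of 20. With silica relative to Control, 3 were higher and 0 lower: Pim1, a survival kinase, at 1.11, Socs3, the feedback inhibitor of the G-CSF receptor, at 0.93, and Ier3, an early response gene, at 0.75. Under ATL-III, set against Silica, 9 were higher and 0 lower (median log2 change 0.60), with Pim1 at 0.90, Ccnd3, a cyclin, at 0.82 and Socs3 at 1.40. With ATL-III relative to Control, 10 were higher and 0 lower, with Pim1 at 2.00 and Socs3 at 2.33. The feedback genes Cish and Socs2 were not called in any comparison. In Silica over Control, ATL-III over Silica and ATL-III over Control, Cish gave -0.30, 0.18 and -0.12 (edgeR adjusted p = 0.14, 0.36 and 0.6). Socs2 gave -0.09, 0.11 and 0.02 in the same order (adjusted p = 0.65, 0.56 and 0.93). Socs3 had 41.2, 45.7 and 34.2 FPKM in Silica + ATL-III lungs, 20.0, 11.8 and 14.5 FPKM in Silica lungs, and 8.74, 9.87 and 7.54 FPKM in Control lungs, with no overlap between groups. Without Silica 3 the second count was 5, and without Control 1 or Control 3 the third was 6. In the second comparison 1 gene was called lower without Silica 2, and in the third 1 without Silica + ATL-III 1. Many other cytokines also induce these genes. Neutrophil markers, given below, were higher in the same Silica + ATL-III libraries, and their part in these counts was not tested.

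A list of other ligands and receptors set beside the family had 7 tested of 11 genes. Not all of them share a ligand or subunit with the family: Flt3l, Kitl and Kit do not. Trem2, a lipid-sensing macrophage receptor that signals through Tyrobp, had 2.41, 1.35 and 2.64 FPKM in Silica + ATL-III lungs, 12.5, 4.46 and 8.77 FPKM in Silica lungs, and 0.60, 0.45 and 0.49 FPKM in Control lungs. Flt3l, the growth factor of dendritic cells, had 7.61, 8.36 and 8.96 FPKM in Silica + ATL-III lungs, 9.08, 13.1 and 11.1 FPKM in Silica lungs, and 15.6, 18.8 and 17.4 FPKM in Control lungs, so that it ran opposite to Spi1. In Silica over Control, Trem2 was called higher, and Flt3l and Kitl (stem cell factor) lower. With ATL-III relative to Silica, Ptprz1, a further receptor of interleukin 34, and Kit, the receptor of Kitl, were higher, and Trem2, Flt3l and Sdc1, a syndecan that binds interleukin 34, were lower. In Silica + ATL-III relative to Control, Trem2 was higher, and Flt3l and Kitl lower. Without single libraries the lower counts fell to 0 or 1: in Silica vs Control without any 1 Control library, Silica 1 or Silica 3, and with ATL-III over Silica without Silica 3, Silica + ATL-III 1 or Silica + ATL-III 2. The higher count with ATL-III over Silica was 0 or 1 without Silica 1, Silica 3, Silica + ATL-III 2 or Silica + ATL-III 3, and that of Silica vs Control was 2 without Silica 2.

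Cytokines and receptors known to induce colony-stimulating factors were 17 tested of 21. With silica relative to Control, 5 were higher and 1, Il17rc, lower, a lower call that ended without Control 2, Control 3, Silica 1 or Silica 3. The higher ones included the cytokine genes Il1a (2.24) and Tnf (2.47) and the receptor gene Tnfrsf1b (1.22). For ATL-III over Silica, 3 were higher, the receptor genes Il17ra (1.12), Il17rc (0.66) and Tnfrsf1a (0.70), and 3 were lower, Il1a (-1.44), Tnf (-1.84) and Il1r1 (-0.38). For ATL-III over Control, 5 were higher, with Il17ra at 1.27, Tnfrsf1a at 1.04 and Tnfrsf1b at 0.98, and 1, Il1r1, was lower, which it was not without Control 1. Il1a had 3.36, 2.36 and 3.47 FPKM in Silica + ATL-III lungs, 8.85, 8.20 and 8.26 FPKM in Silica lungs, and 1.67, 1.58 and 2.50 FPKM in Control lungs. Silica libraries were highest for Il1a, as for Csf2, but not for every inducer. Il1b had 96.7, 117.2 and 103.9 FPKM in Silica + ATL-III lungs, 29.9, 55.9 and 19.6 FPKM in Silica lungs, and 10.7, 86.1 and 9.29 FPKM in Control lungs. ATL-III over Silica gave 1.62 ± 0.68 for Il1b (edgeR adjusted p = 0.11). The list summed to 259 to 290 FPKM with ATL-III, 213 to 224 in Silica and 156 to 234 in Control lungs. Il1b, which was not called there, carried a large part of the sums with ATL-III and of that in Control 2.

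Alveolar macrophage genes that depend on GM-CSF, or mark these cells, were 28 tested of 29. In Silica over Control, 18 were higher and 1, Cidec, lower (median log2 change 0.93), with Ctsk, a lysosomal protease, at 4.26 and Olr1, a scavenger receptor, at 1.97. In Silica + ATL-III relative to Silica, 2 were higher, Krt79 at 0.86 and Cidec at 0.82, and 14 lower (median -0.53), with Olr1 at -1.32, Ctsk at -2.04 and Atp6v0d2, a proton pump subunit, at -1.48. With ATL-III relative to Control, 10 were higher and 2 lower (median 0.30), with the scavenger receptor Marco at 2.26 and Fabp1 at -1.29. The small counts moved: the lower count of the first comparison was 2 without Silica 3, the higher count of the second 0 or 1 without Control 1, Silica 1, Silica 2, Silica + ATL-III 1 or Silica + ATL-III 2, and the lower count of the third 1 without Control 1 or Silica + ATL-III 1. Summed over the list, levels ran from 2871 to 3834 FPKM with ATL-III, 3588 to 7444 in Silica and 2040 to 2269 in Control lungs, and no gene was at 0 in any library. A few genes carried much of these sums. Spp1 had 3983, 646 and 1412 FPKM in Silica lungs, and Chil3, also in the neutrophil list, 1177, 1272 and 2198 FPKM with ATL-III. Siglecf (0.54, edgeR adjusted p = 0.07), Car4 (0.01) and Cd36 (-0.07) were not called in Silica over Control. Nor were Ear1 and Fabp1, though every Silica library lay below every Control library for both. Ear1 had 32.1, 38.7 and 49.7 FPKM in Silica lungs and 58.9, 58.2 and 50.6 in Control lungs. Fabp1 had 11.6, 18.5 and 18.3 FPKM in Silica lungs and 29.5, 28.4 and 20.3 in Control lungs. The part of the listed genes in the Csf2 and receptor results was not tested.

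**Figure D4:**
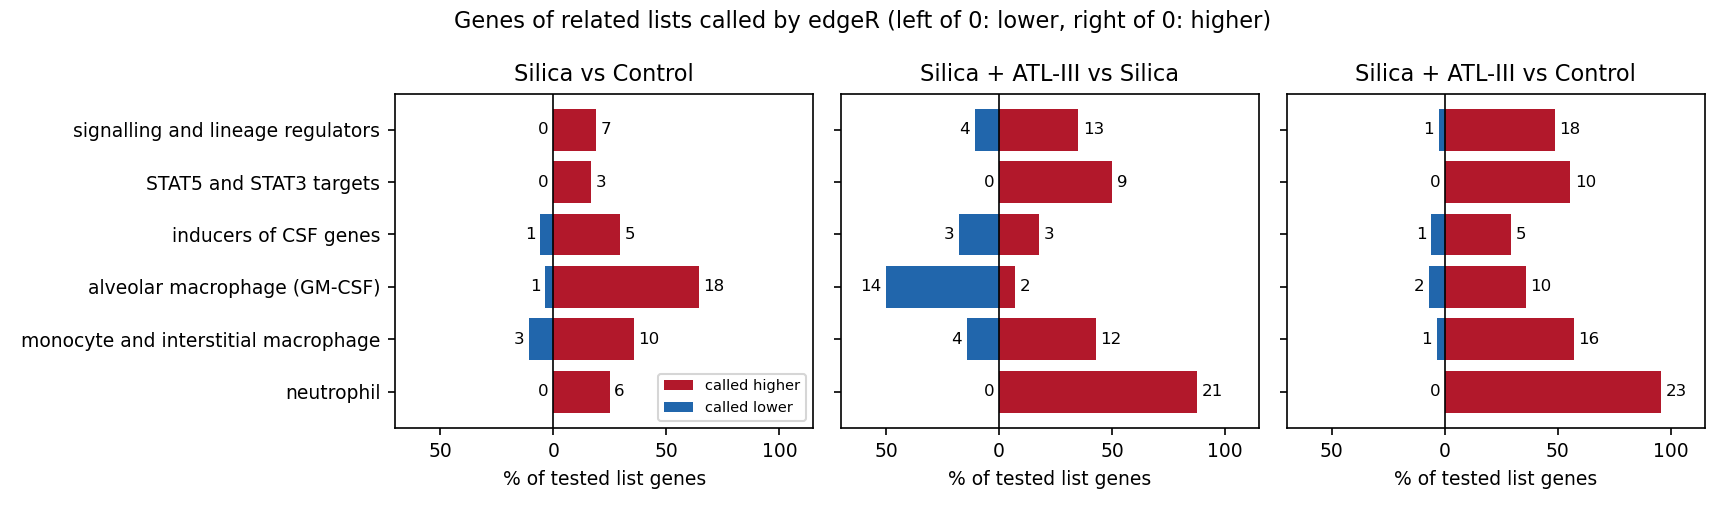
Share of the tested genes of 6 lists that edgeR called lower (left of 0) or higher (right of 0) in each comparison, in percent, with the number of genes beside each bar. Neutrophil genes were called higher in 21 of 24 with ATL-III relative to Silica, and alveolar macrophage genes were called lower in 14 of 28. Of all tested genes, 11.2% were called higher and 10.0% lower in that comparison.

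Csf3r and Csf2ra are expressed by neutrophils, and neutrophil markers were higher in the same libraries. Of 29 listed genes 24 were tested. Under ATL-III, set against Silica, 21 were higher and 0 lower (median log2 change 2.96), in Silica + ATL-III vs Control 23 and 0 (median 3.79), and in Silica vs Control 6 and 0 (median 0.50, with 1 lower without Silica 2). Not all ran as Csf3r did. Cxcr1 and Cd177 were already higher in Silica over Control, by 3.99 and 3.84 (edgeR adjusted p = 0.00012 and 0.00015). ATL-III over Silica gave -0.04 and 0.74 for them (adjusted p = 0.94 and 0.092), so neither was called there. Mmp8, a granule collagenase, had 541.6, 762.6 and 488.2 FPKM in Silica + ATL-III lungs, 7.42, 15.3 and 5.05 FPKM in Silica lungs, and 4.12, 17.6 and 4.58 FPKM in Control lungs. Ngp, a granule protein, had 101.9, 119.6 and 81.3 FPKM in Silica + ATL-III lungs, 1.03, 6.62 and 1.52 FPKM in Silica lungs, and 0.15, 0.61 and 1.06 FPKM in Control lungs. The list summed to 31958 to 48230 FPKM with ATL-III, 2854 to 5946 in Silica and 1115 to 4550 in Control lungs, with 0, 0 to 3 and 3 to 5 genes at 0. S100a8 and S100a9 carried most of the sums with ATL-III, at 11884 and 14144 of 32358 FPKM in Silica + ATL-III 1. Silica 2 and Control 2, the high libraries for Csf3r, had the highest sums of their groups. The part of these transcripts in the Csf3r, Csf2ra and Spi1 results was not tested.

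Monocyte and interstitial macrophage genes, 28 of 28 tested, were mixed in direction. With silica relative to Control, 10 were higher and 3 lower (median log2 change 0.56), with Cd68, a lysosomal protein of macrophages, at 2.23, Itgam, an integrin of myeloid cells, at 1.73, Ms4a7 at 2.15 and Cd163, a haemoglobin scavenger receptor, at -1.14. With ATL-III relative to Silica, 12 were higher and 4 lower (median 0.32), with F13a1, a clotting factor subunit of monocytes, at 2.37, Ms4a4a at 2.55, Lyve1 at 1.47 and Ms4a7 at -1.52. In Silica + ATL-III relative to Control, 16 were higher and 1, Tmem119, lower (median 0.83). The first counts were 6 higher without Control 1, Silica 1 or Silica 3 and 1 lower without Control 2, Control 3 or Silica 1. The lower count of the second comparison was 2 without Silica 1, Silica 3 or Silica + ATL-III 2, and that of the third was 0 without Control 1, Control 3, Silica 2, Silica 3, Silica + ATL-III 2 or Silica + ATL-III 3. The list summed to 712 to 873 FPKM with ATL-III, 476 to 626 in Silica and 427 to 499.5 in Control lungs, with no gene at 0. Lyve1 carried part of these sums, with 188.85, 160.29 and 95.02 FPKM in Silica + ATL-III lungs. It had 51.07, 57.36 and 53.58 FPKM in Silica lungs, and 86, 74.12 and 82.54 FPKM in Control lungs. Which cells held the Lyve1 transcript was not tested. The part of the listed genes in the Csf2rb, Csf2rb2 and Csf1r results was not tested either.

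**Figure D5:**
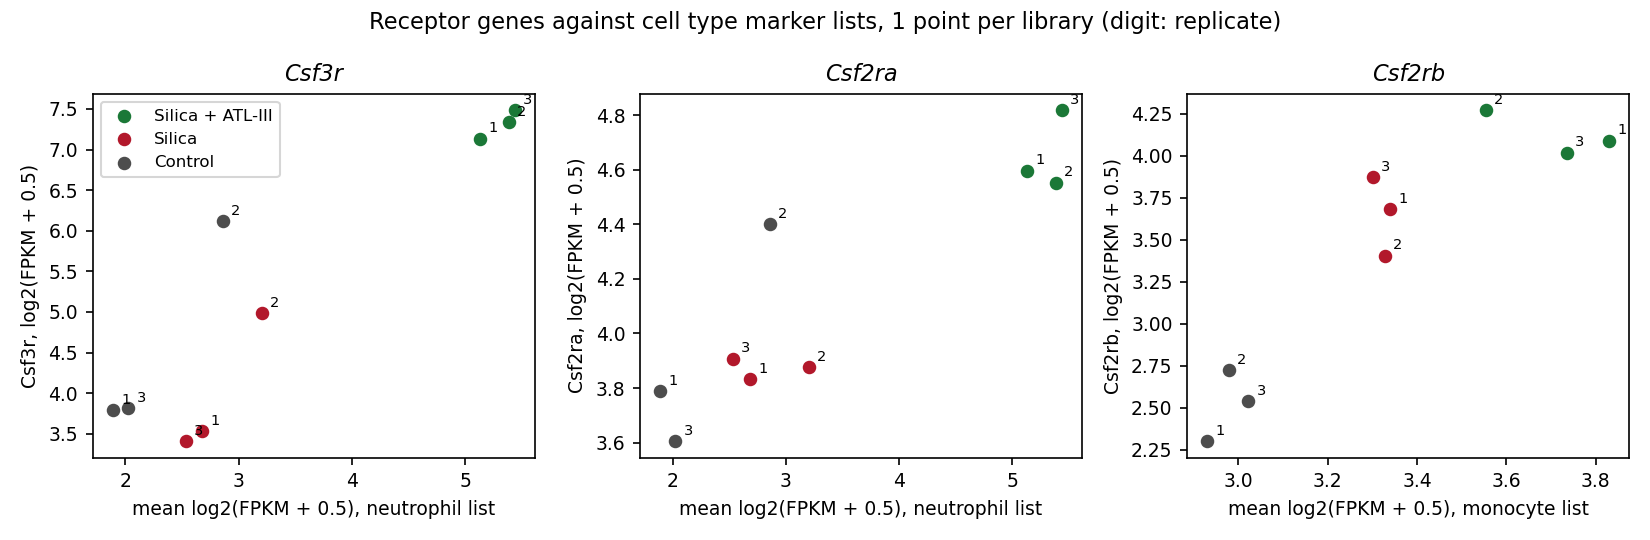
Level of Csf3r, Csf2ra and Csf2rb in each library (vertical axes, log2 of FPKM plus 0.5) against the mean level of the neutrophil list or the monocyte list (horizontal axes, same scale); digits give the replicate. The 3 Silica + ATL-III libraries lie at the upper right in each panel, and Control 2 lies above the other Control libraries for Csf3r and Csf2ra.

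For each tested member the genes with the most similar profile were the 3 with the highest Pearson correlation of log2(FPKM + 0.5) over the 9 libraries, which share the group differences above. For Csf3r they included Trim30b (0.996) and Pde1b (0.989). For Csf2ra they were Cytip (0.990), Cyp4f18 (0.977) and Gm34084 (0.975), and for Csf2rb Plscr1 (0.983), Cd177, a neutrophil surface protein (0.981), and Gnpda1 (0.979). For Csf2rb2 they were Snx10 (0.981), Pik3r5 (0.978) and Bst1 (0.976), and for Csf1r Exoc6 (0.958), Hemk1 (0.950) and Gm12473 (0.928). For Csf1 they were D730005E14Rik (0.983), Chst11 (0.978) and Bcl3 (0.962), for Csf2 Rsl1 (0.951), Pik3cb (0.949) and Gm10157 (0.949), and for Il34 Dipk1b (0.982), Erlin2 (0.969) and St6gal1 (0.965). These are descriptions of 9 libraries.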

How the data were processed

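Lung poly(A) RNA of 3 groups with 3 libraries each was sequenced. The submitters' processing notes list cutadapt 1.9.1, HISAT2 2.0.1, HTSeq 0.6.1 and mm10. The deposited table holds raw read counts per gene beside FPKM, both deposited by the authors. Recomputing FPKM from counts, exonic length and column totals gave 100% of values within 0.006. Start positions in the table did not match GRCm38, so only its chromosomes are printed. The protocols name no strand step, so sense and antisense reads cannot be told apart.

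The test covered the 15459 genes that reached 1 FPKM in 3 or more libraries, in edgeR 4.0.16 (quasi-likelihood, TMM, R 4.3.3), all 9 libraries in 1 fit of 3 group means with 6 residual degrees of freedom, with a call at an adjusted p (Benjamini-Hochberg) below 0.05. SE was obtained from the log2 fold change and its F statistic. Ratios within a library used a pseudocount of 0.1 and exact permutation tests. Alternatives were DESeq2 1.42.0, limma 3.58.1 (voom and log2 FPKM), other scalings and filters, a replicate block, and each library left out. The scripts were tested on simulated data with 200 changed genes. False calls were 13 of 164 in Silica vs Control, 16 of 162 in Silica + ATL-III vs Silica and 16 of 162 in Silica + ATL-III vs Control.

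Members and 12 gene lists (255 genes) were chosen with earlier results of these data known. From a described list, up to 3 called genes with the smallest p in the direction with more calls and 1 in the other are named, apart from items not reported here, and FPKM per library are given for a few of them. Cxcr2, Sftpc and the read share of the beta chain pair were picked after their values were seen. No library was a copy of another: chi-square over degrees of freedom between replicates was 6.93 to 61.4.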

Additional observations from a re-analysis of the deposited data

How the results depend on the processing

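Of the member fold changes, 269 kept direction and side of the threshold under another setting, 8 lost their call and 3 gained one, and leaving out 1 library gave 187, 17 and 1. The sign turned in 8 and 11 cases, none with a call. These were Csf2ra in Silica vs Control (0.010 with RLE scaling, 0.023 with filterByExpr, 0.013 with no filter, 0.020 at FPKM 0.5, 0.010 in DESeq2, 0.041 in voom, 0.003 with 6 libraries, 0.017 with the replicate block, and -0.162 to 0.271 with 1 library left out), Csf3r in Silica vs Control (-1.449 to 0.448), and Csf1r in Silica + ATL-III vs Silica (-0.113 to 0.122) and vs Control (-0.171 to 0.055). The log2 ratio of Csf1 to Il34 in Silica vs Control ran from -0.145 to 0.105. With no filter 5 members were called in Silica vs Control; that fit gave far smaller p-values (Csf3r with ATL-III over Silica, adjusted p = 5.1e-74, against 0.004 with the filter). Csf2 in Silica vs Control also lost its call with library totals (adjusted p = 0.051) and in limma on log2 FPKM (0.058 to 0.1). With 1 library left out, members called ran from 2 to 3, 3 to 5 and 3 to 5 (silica over Control, then ATL-III over Silica and over Control), and genes called in all from 840 to 3932, 1828 to 3860 and 1453 to 2862. The cause was not tested, beyond fewer libraries giving fewer residual degrees of freedom.

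Scaling by library totals alone moved the median gene to -0.11 (Silica vs Control) and -0.13 (Silica + ATL-III vs Control), and the share of calls that were higher to 32.7% and 34.3%, against 53.8% and 57.6% with TMM. Correlations of same-numbered libraries were 0.066 to 0.085 between Silica and Control, each the best match there, and -0.107 to -0.007 with Silica + ATL-III; none passed 0.1, so the numbers were not taken to pair the libraries. A fit with the replicate block called 2120, 2822 and 2109 genes and 3, 4 and 5 members (Csf2rb with ATL-III over Silica at adjusted p = 0.056). Csf2 at 11 to 137 reads and Csf3 at 0 to 1 are limited by depth. Csf3 was left out of the alternatives, since it was not tested.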

Other observations

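Lists of the other cell types in lung were read for the same comparisons. Fibroblast and mesothelial genes (18 tested) were higher in 0 and lower in 2 in Silica vs Control, 2 and 7 in Silica + ATL-III vs Silica, and 1 and 9 in Silica + ATL-III vs Control. Lum, a collagen-binding proteoglycan of fibroblasts, had 3.41, 2.64 and 3.02 FPKM in Silica + ATL-III lungs, 8.69, 7.73 and 7.21 FPKM in Silica lungs, and 8.71, 11.7 and 12.1 FPKM in Control lungs. The collagen genes Col1a2 and Col3a1 were lower with ATL-III than in Silica, at -1.80 and -2.41 on the log2 scale. Pi16 of the same list went the other way, at 2.31 with ATL-III over Silica and 1.41 over Control (edgeR adjusted p = 0.00048 and 0.0061). Lymphocyte genes (15 tested) were higher in 1 and lower in 0, higher in 0 and lower in 5, and higher in 0 and lower in 5 in the same order.

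Endothelial genes (15 tested) were higher in 0, 6 and 3 and lower in 5, 2 and 6. Epithelial genes (20 tested) were higher in 5, 1 and 2 and lower in 1, 5 and 2, with the surfactant gene Sftpd at 1.06 in Silica vs Control. Of the eosinophil and basophil genes 4 of 14 were tested, with 1, 1 and 1 higher and 1, 2 and 1 lower. Most of these small counts moved by more than 1.5 times when 1 library was left out. In Silica vs Control the epithelial higher count was 2 without any 1 Control library, Silica 1 or Silica 3, and 9 without Silica 2, and the endothelial lower count was 1 without Control 3 or Silica 1, 2 without Silica 3 and 3 without Control 1. In Silica + ATL-III vs Silica the lymphocyte lower count was 3 without Silica + ATL-III 1 and 8 without Silica + ATL-III 3. In Silica + ATL-III vs Control it was 2 without Control 2 and 3 without Control 3 or Silica + ATL-III 1.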
